A study of Gallus gallus with 3 samples.

Results

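The solute carrier (SLC) genes described here encode membrane proteins that move inorganic ions and metals. They were taken by symbol, as every gene that the platform annotation places in family SLC4, SLC8, SLC9, SLC11, SLC12, SLC20, SLC24, SLC26, SLC30, SLC34, SLC39, SLC40 or SLC41. This gave 72 genes of 13008 named on the array, read by 174 probe sets. Of these, 69 are transporters and 3 carry a transporter's name but are not transporters, namely SLC4A1AP, an adaptor protein, and the scaffold proteins SLC9A3R1 and SLC9A3R2.

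RNA was measured on Affymetrix Chicken Genome Arrays in foregut endoderm at Hamburger-Hamilton (HH) stages 10 to 11, in mid/hindgut endoderm at HH stages 8 to 10 and in early definitive endoderm at HH stages 4 to 5. Foregut endoderm lay anterior to the anterior intestinal portal, and mid/hindgut endoderm lay behind the presumptive small intestine; both were freed from mesenchyme after 30 minutes in 0.03% collagenase. Early endoderm came from 500 embryos and was lifted off with a needle; collagenase is described for the later tissues. All embryos came from fertilized hens' eggs with no treatment or genetic change named, and each tissue was 1 pool on 1 array. No difference below could therefore be tested or checked against a replicate, and stage, region and dissection cannot be told apart.

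These proteins set the ionic composition of cells and of the fluid an epithelium secretes. SLC39 proteins bring zinc and related metals into the cytosol, and SLC30 proteins move them out of it, into vesicles or out of the cell. SLC12 proteins couple chloride to sodium or potassium and set cell volume, SLC4 proteins carry bicarbonate, SLC9 proteins exchange sodium for protons, and SLC34 and SLC20 proteins take up phosphate with sodium. In the mature gut, many of them sit on one face of the epithelium and drive absorption or secretion.

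Values below are scaled signals in array units. The brightness of different probe sets depends on their sequences, so signals are set against each other for 1 gene across tissues and not between genes. A floor of 22.1 units separates measured from unmeasured signals, and a fold against a tissue below it, which gives only a bound, carries the words "at least". Of the 72 genes, 58 lay above the floor in at least 1 tissue (80.6%, beside 85.6% of all named genes), 44 of them in all 3. These counts rest on probe sets listed for 1 gene. The 14 others were SLC4A1, SLC4A4, SLC4A5, SLC4A8, SLC4A10, SLC9A2, SLC9A3, SLC9A9, SLC26A1, SLC26A3, SLC26A4, SLC26A7, SLC30A8 and SLC40A1. SLC4A8 also has a probe set that the annotation lists under 2 identifiers of that symbol, at 101 in foregut and 39.6 in mid/hindgut, against 67.6 in early endoderm; with it, 59 genes were above the floor in at least 1 tissue, 45 in all 3 and 13 in none. The 14 include the red cell anion exchanger SLC4A1, the apical sodium-proton exchanger of absorbing gut SLC9A3 and the intestinal chloride-bicarbonate exchanger SLC26A3.

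The share of chicken probe sets above the floor was between 58.9% and 60.8%. Its mean over the arrays is fixed by the floor, which is a percentile of these probe sets. Of the viral probe sets, 2.76% in foregut, 2.18% in mid/hindgut and 1.31% in early endoderm were above it. The ratio of 3′ to 5′ actin signal, which rises as RNA degrades, was 1.69 in foregut and 2.19 in mid/hindgut, against 1.55 in early endoderm. The same ratio for GAPDH was 0.97, 1.01 and 0.98 in that order. For 4134 genes, at least 2 probe sets were above the floor in all 3 tissues, and log2 differences of the 2 brightest were compared. The SD of their disagreement, per probe set, was 0.43 (foregut to early), 0.31 (mid/hindgut to early) and 0.36 (foregut to mid/hindgut). This covers probe noise above the floor, and leaves out readings below the floor and the spread between pools. Of 14 endodermal markers, 12 were above the floor in each tissue, with summed signals of 23019 in foregut and 31878 in mid/hindgut, against 28877 in early endoderm. SOX17, FOXA2, HHEX, EPCAM and CDH1 were above it in every tissue, GATA4 was below it in every tissue, FOXA1 was above it in foregut only, and HNF4A was below it in foregut. GATA6 was at 138 in foregut and 415 in mid/hindgut, against 1126 in early endoderm. SOX17 itself was at 878 in foregut and 4947 in mid/hindgut, against 9773 in early endoderm. Markers of other cells moved with the tissues. Of 15 endothelial markers, 15 in foregut, 15 in mid/hindgut and 8 in early endoderm were above the floor, with summed signals of 8716, 10364 and 544, and CDH5, TEK and FLT1 were below it in early endoderm. Of 11 red cell markers, 8, 7 and 6 were above it in that order of tissues, with summed signals of 2492, 6497.5 and 354; RHAG and GFI1B were below it in all 3. LMO2, which other blood and vessel cells also express, made up 1825.5 of the foregut sum, and the globin HBA1 was at 50.7 in foregut and 538 in mid/hindgut, against 23.4 in early endoderm. Of 15 gut mesenchyme markers, 11, 11 and 9 were above it, with sums of 7698, 3609.9 and 6722. FOXF1 and HAND1 were below it in all 3. VIM made up 4177, 2480 and 3934 of these sums, and COL1A2 1011, 312 and 1957. POSTN, LUM and DCN read 359, 284 and 276 in foregut, and 220, 98.3 and 78.7 in mid/hindgut. These genes did not reach the floor in early endoderm. Of 13 markers measured in foregut against early, 6 were at least 2-fold higher and 1, PDGFRA, was lower. In mid/hindgut against early, 4 of 12 were higher and 4 lower. The remaining summed signals, in foregut, mid/hindgut and early endoderm, were 1750, 560 and 1275 for neural markers (9 of 12 above the floor in at least 1 tissue), 713, 2852 and 4171 for notochord (5 of 5), 417, 728 and 1439 for paraxial mesoderm (8 of 9), 1250, 1147 and 1071 for cardiac mesoderm (9 of 9) and 4742, 8857 and 6594 for yolk sac or hypoblast endoderm (9 of 11, with AMN and RBP4 below it in all 3). A sum can rest on 1 bright gene. TBXT made up 98.2, 2420 and 3598 of the notochord sums in that order. SHH and NOG were below the floor in early endoderm and highest in mid/hindgut. CHRD was at 401 in foregut and 70.4 in mid/hindgut, against 441 in early endoderm, and NOTO was at 99.3 and 62.1, against 95.8. In bulk RNA, fewer cells of a type and less RNA per cell cannot be told apart. The part that these cells had in the differences below was not tested.

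**Figure D1:**
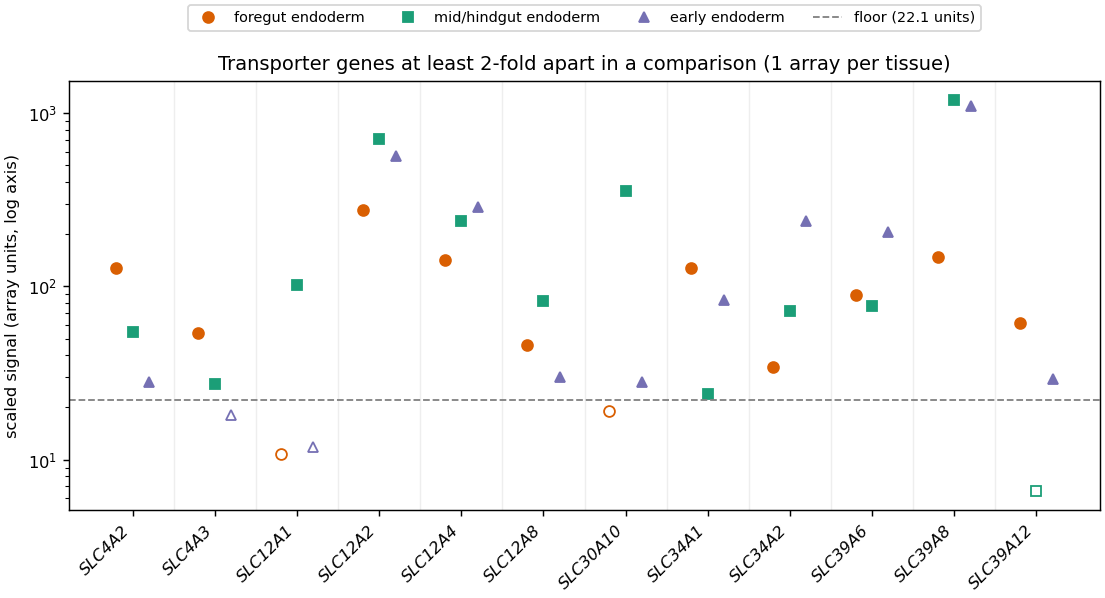
Scaled signal (array units, log axis) of the 12 transporter genes that were at least 2-fold apart in any comparison, with 1 point per tissue from its single array; the dashed line is the floor of 22.1 units and open points lie below it. SLC39A8 was at 148 in foregut, against 1187 in mid/hindgut and 1105 in early endoderm, and SLC30A10 was at 355 in mid/hindgut, against 28.0 in early endoderm.

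Of the 58 transporter genes above the floor, 12 (20.7%) were at least 2-fold apart in a comparison, beside 24.5% of all 11136 genes above it, and 46 were not. These calls use 1 probe set per gene. For 9 of the 46 (19.6%, beside 11.3% of all such genes), namely SLC4A1AP, SLC4A7, SLC9A7, SLC9A8, SLC12A7, SLC24A5, SLC26A9, SLC39A11 and SLC41A1, another probe set was past 2-fold. The 12 include carriers of zinc and manganese (SLC39A8, SLC30A10, SLC39A6, SLC39A12), of phosphate (SLC34A1, SLC34A2), of chloride with cations (SLC12A1, SLC12A2, SLC12A4) and of bicarbonate (SLC4A2, SLC4A3), with SLC12A8 as the last. The probe sets used for SLC12A2, SLC12A4, SLC34A1, SLC39A6, SLC39A12 and SLC4A3 are by their names shared between transcripts. Without such probe sets SLC12A2, SLC34A1 and SLC4A3 had no value, foregut against early endoderm was −0.45 in log2 for SLC12A4, −0.48 for SLC39A6 and 0.58 for SLC39A12, and the mid/hindgut call of SLC39A6 held. No member of families SLC8, SLC9, SLC11, SLC20, SLC24, SLC26 or SLC41 was among them.

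Foregut endoderm was first set against early endoderm, which asks how the front of the gut tube differs from the germ layer it forms from. Of 57 transporter genes measured, 5 were at least 2-fold lower (8.77%, beside 6.49% of all 10800 genes measured) and 3 at least 2-fold higher (5.26%, beside 10.6%). The lower genes were SLC39A8, SLC34A2, SLC39A6, SLC12A2 and SLC12A4, and the higher ones SLC4A2, SLC4A3 and SLC39A12. The median log2 difference of the transporter genes was −0.13, and that of all genes was 0.08. At 4-fold, SLC39A8 and SLC34A2 were lower, 2 genes beside 1.58% of all genes, and SLC4A2 was higher, 1 gene beside 2.55%. With arrays scaled on hybridisation controls, these medians were 0.31 and 0.51, and of 60 transporter genes 2 were lower (beside 3.42% of all genes) and 9 higher (beside 22.2%).

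Mid/hindgut endoderm was set against the same early endoderm array, so these differences share it with those above. Of 56 transporter genes measured, 3 were at least 2-fold lower (5.36%, beside 5.13% of all 10745 genes), namely SLC34A1, SLC34A2 and SLC39A6. Another 3 were at least 2-fold higher (5.36%, beside 8.12%), namely SLC30A10, SLC12A1 and SLC12A8. At 4-fold, 2 genes were higher, SLC30A10 and SLC12A1, beside 2.34% of all genes, and 0 were lower, beside 1.35%. The median log2 difference was 0.10 for the transporter genes and 0.03 for all genes.

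The last comparison set foregut against mid/hindgut endoderm and so contrasts the front and the back of the later gut. Of 56 transporter genes measured, 5 were at least 2-fold lower in foregut (8.93%, beside 5.74% of all 10906 genes), namely SLC30A10, SLC39A8, SLC12A1, SLC12A2 and SLC34A2. SLC34A1, SLC39A12 and SLC4A2 were at least 2-fold higher (5.36%, beside 6.37%). At 4-fold, 3 genes were lower, SLC30A10, SLC39A8 and SLC12A1, beside 1.35% of all genes, and 1 was higher, SLC34A1, beside 1.27%. The median log2 difference was −0.23 for the transporter genes and 0.02 for all genes. It was 0.28 and 0.56 with scaling on hybridisation controls, where of 62 transporter genes 3 were lower (beside 2.27% of all genes) and 10 higher (beside 20.6%).

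**Figure D2:**
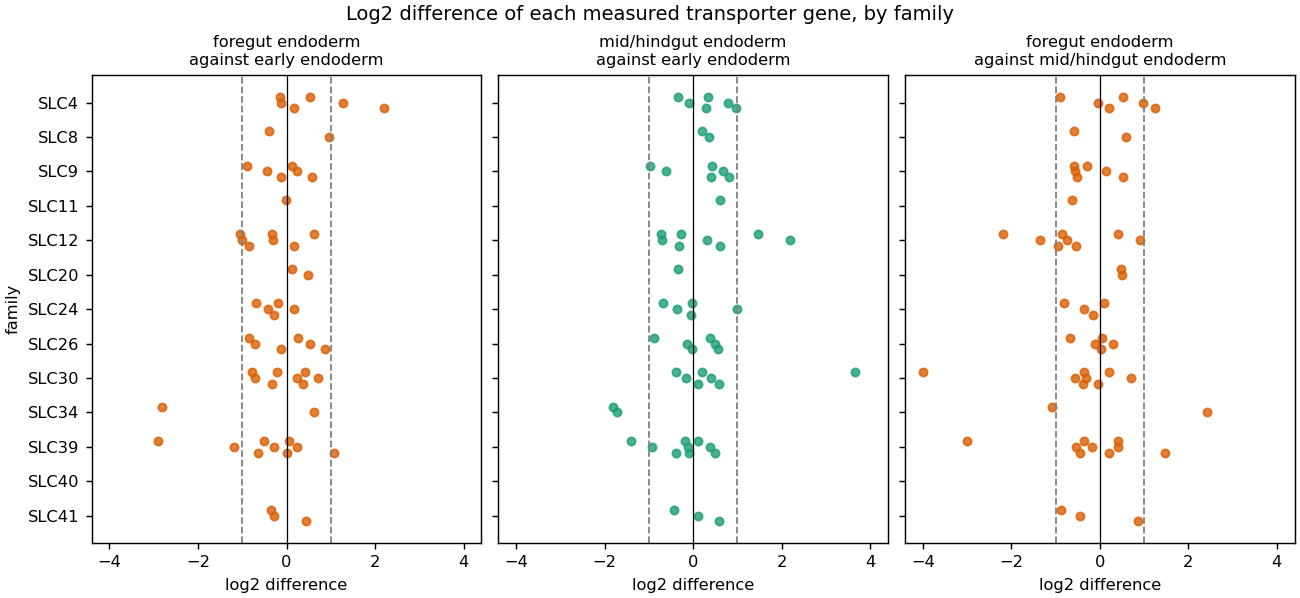
Log2 difference of each measured transporter gene (x axis) by family (rows) in the 3 comparisons, with 1 point per gene from 1 array per tissue; dashed lines mark 2-fold and the black line no difference. Most points lie between the dashed lines, and the farthest is SLC30A10, at −4.00 in foregut against mid/hindgut and 3.67 in mid/hindgut against early endoderm.

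Among the 44 genes above the floor in all 3 tissues, 17 (38.6%) differed by less than 1.5-fold between the highest and the lowest tissue, beside 52.5% of the 9124 genes of the array measured in all 3. The lowest signal was in foregut for 19 of the 44, in mid/hindgut for 11 and in early endoderm for 14. Over all 9124 genes the shares were 33.1% in foregut, 28.6% in mid/hindgut and 38.3% in early endoderm. With scaling on hybridisation controls, foregut was the lowest for 7 of 42 genes, beside 8.08% of all genes.

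The carriers that bring zinc into the cytosol are the SLC39 family, and all 9 of its members on the array were measured. SLC39A8, which carries manganese and zinc across the cell surface, had a signal of 148 in foregut, against 1187 in mid/hindgut and 1105 in early endoderm. Foregut was thus low and the other tissues close together. The difference was 7.45-fold lower in foregut than in early endoderm and 8.00-fold lower than in mid/hindgut, while mid/hindgut and early endoderm were 1.07-fold apart. Its other probe sets read 105 and 50.7 in foregut, against 978 and 632 in mid/hindgut and 1056 and 619 in early endoderm. All 3 probe sets therefore put foregut lowest, and the call held under all 9 alternatives run for single genes. Here and below, some of these alternatives could not alter the value of a given gene, and they are named at the end.

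SLC39A6, a zinc importer known from zebrafish for its part in cell movement at gastrulation, was at 89.6 in foregut and 77.3 in mid/hindgut, against 205 in early endoderm. Both later tissues were lower, by 2.29-fold in foregut and by 2.66-fold in mid/hindgut. The mid/hindgut call held under all 9 alternatives. The foregut one did not: a second probe set gave a log2 difference of −0.48 in place of −1.20, and scaling on hybridisation controls gave −0.73. SLC39A10, its close relative, was at 92.4 in foregut and 69.2 in mid/hindgut, against 131 in early endoderm, 1.42-fold and 1.89-fold lower and so within 2-fold.

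SLC39A12, a zinc importer best known from brain, was at 61.6 in foregut, below the floor in mid/hindgut and at 29.1 in early endoderm. It was 2.11-fold higher in foregut than in early and at least 2.78-fold higher than in mid/hindgut endoderm. These are dim signals, and with the floor at the 60th percentile both log2 differences were 0.03. Over the median of its probe sets both were 0.22. The remaining SLC39 genes were SLC39A3, SLC39A5, SLC39A9, SLC39A11 and SLC39A13, each within 2-fold by the probe set used. SLC39A11, another zinc transporter, was at 783 in foregut and 588 in mid/hindgut, against 667 in early endoderm, and another probe set had 111 in foregut, against 49.1 in mid/hindgut. SLC39A9, a zinc transporter of the secretory pathway and cell surface, was at 762 in foregut and 857 in mid/hindgut, against 928 in early endoderm.

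Of the 9 SLC30 genes, which carry zinc or manganese out of the cytosol, 8 were measured and 1 reached 2-fold. SLC30A10, which in mammals exports manganese, was below the floor in foregut, at 355 in mid/hindgut and at 28.0 in early endoderm. Mid/hindgut alone was high. It was 12.7-fold higher in mid/hindgut than in early endoderm, and foregut was at least 16.1-fold lower than mid/hindgut. Of its 3 other probe sets, 2 were measured, at 74.8 and 39.3 in mid/hindgut and below the floor in foregut and early endoderm. The median over its probe sets, on the log2 scale, put mid/hindgut at 1.29 above early endoderm and foregut at −1.29 relative to mid/hindgut, still past 2-fold, and the call held under all 8 alternatives that gave a value.

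The other measured SLC30 genes did not reach 2-fold by the probe set used. SLC30A1, the zinc exporter of the cell surface, was at 273 in foregut and 356 in mid/hindgut, against 467 in early endoderm, 1.71-fold and 1.31-fold lower. SLC30A5, which loads zinc into the secretory pathway, was at 1212 in foregut and 1239 in mid/hindgut, against 933 in early endoderm. SLC30A6, its partner, was at 142 and 209.5, against 233. SLC30A4, of endosomes, was at 913 and 1171, against 777. SLC30A2, a vesicular zinc transporter, was above the floor in foregut only, at 36.2, at least 1.63-fold higher than in the other tissues. SLC30A7 and SLC30A9 were within 1.5-fold by the probe set used. Another probe set of SLC30A9 gave −0.83 in log2 for foregut against mid/hindgut.

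**Figure D3:**
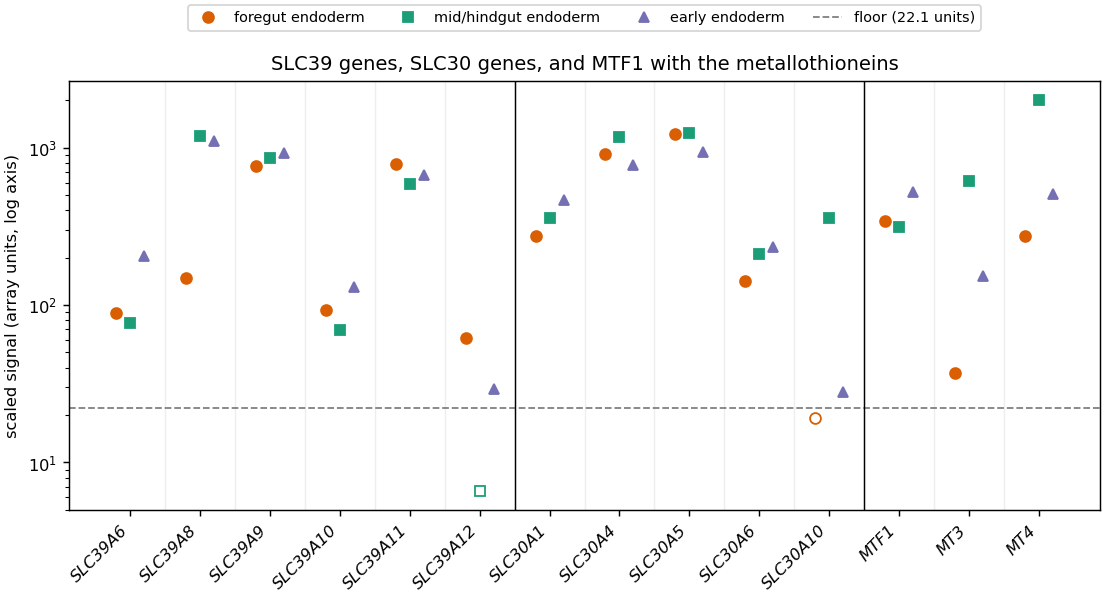
Scaled signal (array units, log axis) of 6 SLC39 genes, 5 SLC30 genes and, on the right, MTF1 and the metallothionein genes MT3 and MT4, with 1 point per tissue from 1 array; open points lie below the floor of 22.1 units. SLC39A8, SLC30A10, MT3 and MT4 were each lower in foregut than in mid/hindgut, whereas SLC30A5 was at 1212 and 1239 in those tissues.

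The zinc and copper handling list, chosen as partners of these families, had 7 of its 10 symbols on the array. Metallothioneins are small proteins that bind zinc and copper. MT3 was at 37.3 in foregut and 610.2 in mid/hindgut, against 152 in early endoderm, and MT4 was at 274 and 1997, against 506.5. Both were highest in mid/hindgut and lowest in foregut, 16.4-fold and 7.28-fold lower in foregut than in mid/hindgut endoderm. In mid/hindgut against early endoderm MT3 was 4.01-fold and MT4 3.94-fold higher. Each has 1 probe set, so no second reading exists. MTF1, the zinc-sensing factor that activates metallothionein genes, was at 341 and 311, against 520.4, and within 2-fold. ATP7B, a copper pump, was at 83.6 in foregut and 51.1 in mid/hindgut with early endoderm below the floor, at least 3.77-fold and at least 2.31-fold higher. Its 3 other measured probe sets lay between −0.71 and 0.80 in log2 for foregut against early. Across this and the other partner lists below, 26 of 44 calls had another measured probe set. All of a gene's other probe sets had the same sign in 23 of the 26 and were also past 2-fold in 9. In this list, 1 of 6 measured genes was higher and 1 lower in foregut against early. In mid/hindgut against early 3 of 7 were higher and none lower. In foregut against mid/hindgut endoderm none were higher and 2 of 7 lower. The median log2 differences were −0.27, 0.45 and −0.16. Of all genes measured, 10.6% were higher and 6.49% lower in the first comparison, and 8.12% and 5.13% in the second. In the third, 6.37% were higher and 5.74% lower. The same shares stand beside the counts of the partner lists below.

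The SLC34 family takes up phosphate with sodium, and both members on the array differed. SLC34A2, the phosphate carrier of intestine and lung in mammals, was at 34.3 in foregut and 72.1 in mid/hindgut, against 239 in early endoderm. Early endoderm was high and foregut low. SLC34A2 was 6.98-fold lower in foregut and 3.32-fold lower in mid/hindgut than in early endoderm, and both calls held under all 9 alternatives. Its second probe set read below the floor in foregut and 38.8 in mid/hindgut, against 112 in early endoderm. Foregut was also 2.10-fold lower than mid/hindgut, a call that was lost with scaling on hybridisation controls (−0.50 in log2), with the higher floor (−0.25) and over the median of probe sets (−0.94).

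SLC34A1, the phosphate carrier of kidney, was at 129 in foregut and 24.0 in mid/hindgut, against 83.9 in early endoderm. Mid/hindgut was low, 3.49-fold below early endoderm, and foregut was 5.35-fold above mid/hindgut. This rests on 1 probe set of 5, since the other 4 were below the floor in every tissue, and the median of all 5 gave log2 differences of 0.00. Among the sodium-phosphate carriers of SLC20, SLC20A2 was at 238 in foregut and 172 in mid/hindgut, against 217.5 in early endoderm. SLC20A1 was near or below the floor throughout, with 31.2 in foregut. Of 10 symbols of other phosphate handling genes, 9 were on the array. STC2, a stanniocalcin, was at 99.3 in foregut and 76.2 in mid/hindgut, against 46.4 in early endoderm, 2.14-fold higher in foregut than in early, as the 1 of 6 measured. Its second probe set gave 0.72 in log2. ANKH, which releases phosphate compounds from cells, was at 38.6 in foregut, against 125 in mid/hindgut, 3.23-fold lower, again the 1 of 6. None of 5 measured reached 2-fold in mid/hindgut against early endoderm, and the list medians in log2 were 0.37 (foregut to early), 0.71 (mid/hindgut to early) and −0.25 (foregut to mid/hindgut).

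All 8 SLC12 genes were measured. SLC12A2, the sodium-potassium-chloride importer of most epithelia, was at 276 in foregut and 711 in mid/hindgut, against 570 in early endoderm. Foregut was low, 2.06-fold below early and 2.57-fold below mid/hindgut endoderm. It has 1 probe set, so no second reading exists, and with scaling on hybridisation controls the log2 differences were −0.58 and −0.79 in place of −1.04 and −1.36. SLC12A1, the related importer known from kidney, was at 101 in mid/hindgut and below the floor in foregut and early endoderm, at least 4.58-fold apart in both cases. Of its 4 other probe sets, 3 read between 24.5 and 29.3 in mid/hindgut and below the floor elsewhere. The median of its probe sets gave a log2 difference from early endoderm of 0.30, and with the higher floor it was 0.75.

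Of the other SLC12 proteins, SLC12A4, SLC12A7 and SLC12A5 export chloride with potassium. SLC12A4 was at 142 in foregut and 237 in mid/hindgut, against 287 in early endoderm, 2.02-fold lower in foregut, with 2 other probe sets at −0.45 and −0.21 in log2. SLC12A7 was at 98.8 and 143, against 178, 1.80-fold lower in foregut, with a second probe set at −1.41. SLC12A5, the exporter of neurons, was at 24.4 and 46.7, against 30.9, 1.91-fold lower in foregut than in mid/hindgut. SLC12A8 was at 45.9 in foregut and 82.7 in mid/hindgut, against 30.0 in early endoderm, 2.76-fold higher in mid/hindgut, although the median of its probe sets gave a log2 difference of 0.34. For foregut against mid/hindgut its probe set used gave −0.85 in log2, but the 2 others gave 0.04 and, as a bound, 1.19, the other way. SLC12A3, the sodium-chloride importer of kidney, and SLC12A9 were within 2-fold. By median, the family stood at −0.34 in foregut against early, 0.02 in mid/hindgut against early and −0.79 in foregut against mid/hindgut endoderm.

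Kinases that switch SLC12 carriers on and off, with the proteins that regulate them, had 10 of 12 list symbols on the array and 9 measured. CAB39L, a scaffold that activates such kinases, was at 34.3 in foregut and 114 in mid/hindgut, against 121 in early endoderm, 3.53-fold lower in foregut than in early and 3.33-fold lower than in mid/hindgut. Its 2 other probe sets gave −1.20 and −0.35 in log2 against early, and −0.54 and −0.30 against mid/hindgut. KLHL3, which directs breakdown of WNK kinases, was at 878 in foregut, 369 in mid/hindgut and 376 in early endoderm, 2.38-fold higher in foregut than in mid/hindgut and 2.33-fold higher than in early. SGK1, a kinase that promotes sodium transport, was at 695 in foregut and 604 in mid/hindgut, against 232 in early endoderm, 2.99-fold and 2.60-fold higher. WNK1 was at 344 in foregut, against 163 in mid/hindgut, 2.11-fold higher, with 2 other probe sets at −0.04 and 1.13 in log2. STK39, a kinase that acts directly on SLC12A2, was below the floor in every tissue. OXSR1, another kinase of the list, was at 163 in foregut and 187 in mid/hindgut, against 143 in early endoderm, within 2-fold. The list had 2 higher and 1 lower in foregut against early, 1 higher and none lower in mid/hindgut against early, and 2 higher and 1 lower in foregut against mid/hindgut, with medians of 0.05, −0.08 and 0.20.

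In SLC4, the family of bicarbonate carriers, 6 of the 11 symbols were measured by a probe set listed for 1 gene. They include the adaptor SLC4A1AP, which is not a carrier. SLC4A8, a sodium-coupled exchanger, would be the seventh if its probe set with 2 identifiers were counted, 2.54-fold higher in foregut than in mid/hindgut endoderm. SLC4A2, the chloride-bicarbonate exchanger of most epithelia, was at 128 in foregut and 54.5 in mid/hindgut, against 27.9 in early endoderm. Foregut was highest, 4.59-fold above early and 2.36-fold above mid/hindgut endoderm. A second probe set read 32.9, 39.2 and 32.3 in the same order and did not show this, and the median of its probe sets gave log2 differences of 0.02 from early and 0.00 from mid/hindgut endoderm. SLC4A3, a related exchanger known from heart and brain, was at 53.9 in foregut and 27.2 in mid/hindgut with early endoderm below the floor, at least 2.44-fold higher in foregut, or 0.64 over the median of its probe sets. SLC4A7, a sodium-bicarbonate importer, was at 903 in foregut and 932 in mid/hindgut, against 1001 in early endoderm. Another of its probe sets read 140 in foregut and 279 in mid/hindgut, against 302 in early endoderm, −1.11 in log2 from early and also past 2-fold below mid/hindgut. SLC4A9, an exchanger known from kidney, was at 74.3 and 139, against 81.2, and SLC4A11 and SLC4A1AP were within 1.5-fold by the probe set used; another probe set of SLC4A1AP was at 60.6 in mid/hindgut and below the floor elsewhere.

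**Figure D4:**
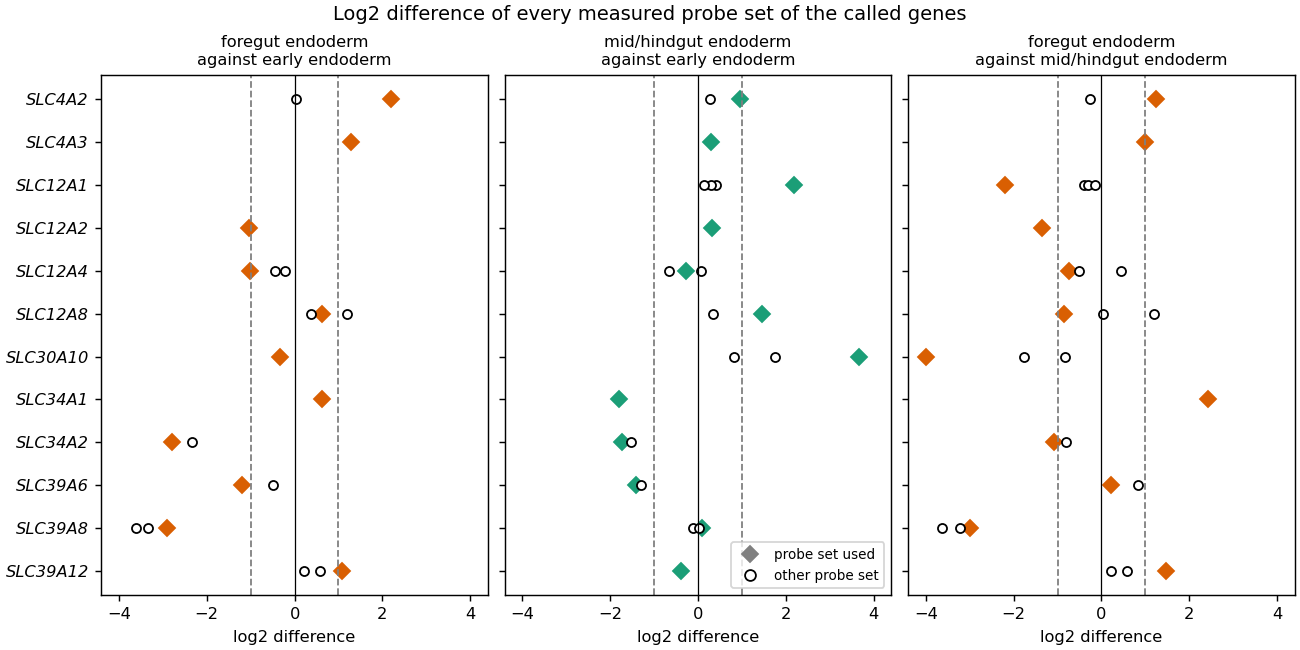
Log2 difference of every probe set above the floor in either tissue, for the 12 genes at least 2-fold apart in any comparison; filled diamonds are the probe set used for the gene, open circles its other probe sets, and dashed lines mark 2-fold. All 3 probe sets of SLC39A8 and both of SLC34A2 lie left of the dashed line in foregut against early endoderm, whereas the second probe set of SLC4A2 lies at 0.02.

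Carbonic anhydrases supply the bicarbonate that these proteins carry, and 9 of 11 list symbols were on the array. CA9, the hypoxia-responsive form at the cell surface, was at 6520 in foregut and 1755 in mid/hindgut, against 1810.4 in early endoderm, 3.60-fold higher in foregut than in early and 3.72-fold higher than in mid/hindgut. CA2, the cytosolic form also abundant in red cells, was at 942.5 and 273, against 23.5, 40.1-fold and 11.6-fold higher. It was 3.45-fold higher in foregut than in mid/hindgut endoderm. Its early value lies close to the floor of 22.1 units, and CA9 and CA2 have 1 probe set each. CA7 was at least 2.62-fold and at least 2.15-fold higher. CA10, a member of the family without enzyme activity, was at 90.4 in foregut and 22.9 in mid/hindgut, against 63.0 in early endoderm, 2.76-fold lower in mid/hindgut than in early and 3.95-fold higher in foregut than in mid/hindgut. Its other measured probe set gave −0.43 and 0.22 in log2 for these. By list, 3 of 6 measured were higher (beside 10.6% of all genes) and none lower (beside 6.49%) in foregut against early. In mid/hindgut against early 2 of 6 were higher (beside 8.12%) and 1 lower (beside 5.13%). In foregut against mid/hindgut 3 of 7 were higher (beside 6.37%) and none lower (beside 5.74%). The medians were 1.06, 0.56 and 0.74. The summed red cell markers were 2492 in foregut and 6497.5 in mid/hindgut, against 354 in early endoderm. LMO2, which other blood and vessel cells also express, made up 1825.5, 2740 and 97.8 of these sums. The part of red cells in the CA2 values was not tested.

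Of the 9 symbols in SLC9, the family of sodium-proton exchangers, 6 were measured, all within 2-fold by the probe sets used. They include the scaffolds SLC9A3R1 and SLC9A3R2, which are not exchangers. SLC9A8, of the Golgi and cell surface, was at 439 in foregut and 631 in mid/hindgut, against 481 in early endoderm, but a second, dimmer probe set was below the floor in foregut, against 48.1 in early endoderm, a difference of −1.12 in log2 as a bound. SLC9A7, of the trans-Golgi network, was at 106 and 129, against 197, 1.86-fold and 1.53-fold lower, and 3 other measured probe sets also put both later tissues below early endoderm, the farthest at −1.02 in foregut. SLC9A5 was at 31.7 in foregut, below the floor in mid/hindgut and at 43.3 in early endoderm. The scaffold SLC9A3R1, which anchors SLC9A3 to the apical membrane, was at 424 in foregut and 631 in mid/hindgut, against 360.1 in early endoderm, although SLC9A3 itself was below the floor in all 3.

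Of the 10 SLC26 anion exchangers, 6 were measured and none reached 2-fold by the probe set used. SLC26A11, a sulfate transporter, was at 318 in foregut and 312 in mid/hindgut, against 221 in early endoderm. SLC26A9, a chloride carrier of airway and stomach epithelium, was at 149 and 121, against 82.1, 1.82-fold and 1.48-fold higher. A second probe set read 66.4 and 111, against 43.7, which is 1.34 in log2 for mid/hindgut against early and puts foregut below mid/hindgut. SLC26A5, the motor protein of hair cells in the inner ear, was at 84.7 and 82.3, against 153, 1.81-fold and 1.86-fold lower, from 1 probe set. SLC26A2, SLC26A6 and SLC26A8 were dim, between values below the floor and 49.7. Of 14 anion channels looked at beside them, 12 were measured. ANO1, a calcium-activated chloride channel of epithelia, was at 141 in foregut and 61.7 in mid/hindgut, against 33.0 in early endoderm, 4.25-fold higher in foregut than in early and 2.28-fold higher than in mid/hindgut. CLCN5, an endosomal chloride-proton exchanger, was at 633 in foregut, against 298 in early endoderm, 2.12-fold higher, with a second probe set at 0.40 in log2. CFTR, the chloride channel of secreting gut, was below the floor in every tissue. Counts were 2 of 12 higher and none lower in foregut against early, none of 11 in either direction in mid/hindgut against early, and 1 of 12 higher and none lower in foregut against mid/hindgut, with medians of −0.15, 0.19 and 0.12.

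The sodium-calcium exchangers of SLC8 and SLC24 were also within 2-fold by the probe sets used. SLC8A1, which extrudes calcium in heart muscle, was at 43.1 in foregut and 28.4 in mid/hindgut with early endoderm below the floor, at least 1.94-fold and at least 1.28-fold higher. A second probe set was above the floor in early endoderm only. SLC24A5, known for its part in pigmentation, was at 286 in foregut and 499.6 in mid/hindgut, against 253 in early endoderm, 1.97-fold higher in mid/hindgut than in early, with a second probe set at 1.25 in log2. SLC8A3, SLC24A1, SLC24A2, SLC24A3 and SLC24A4 had signals no higher than 55.9. Of 13 pump symbols, 10 were on the array and 9 measured. ATP2A3, a calcium pump of the endoplasmic reticulum, was at 297.5 in foregut and 108 in mid/hindgut with early endoderm below the floor, at least 13.4-fold and at least 4.90-fold higher. Its 2 other probe sets gave 1.12 and 1.34 in log2 in foregut, and 0.52 and 0.77 in mid/hindgut. The plasma membrane calcium pumps did not move together by the probe set used. ATP2B2 was at 187 in foregut and 65.5 in mid/hindgut, against 39.7 in early endoderm, 4.72-fold higher in foregut. Its second probe set gave 0.40 in log2. ATP2B1 was at 1106.5 and 2763, against 3848, 3.48-fold lower in foregut, with a second probe set at −2.20 in log2. ATP2B4 was within 2-fold in every comparison. Foregut was 2.74-fold higher than mid/hindgut for ATP2A3, 2.86-fold higher for ATP2B2 and 2.50-fold lower for ATP2B1. Other probe sets gave 0.35 and 0.82 in log2 for ATP2A3, 0.20 for ATP2B2 and −1.50 for ATP2B1. ATP12A, a proton-potassium pump, was 2.63-fold higher in mid/hindgut than in early endoderm, at 61.6 against 23.4, with another probe set at 0.48 in log2. The sodium pump subunits ATP1B1 and ATP1B3 were within 2-fold. The pump list had 2 of 9 higher and 1 lower in foregut against early, 2 higher and none lower in mid/hindgut against early, and 2 higher and 1 lower in foregut against mid/hindgut, with medians of 0.11, 0.36 and −0.26.

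Iron and magnesium carriers were few. SLC11A1, a metal exporter of phagocyte vesicles, was at 34.5 in mid/hindgut, 22.5 in early endoderm and below the floor in foregut. The 1 probe set specific to SLC40A1, the cell's iron exporter, was below the floor in all 3. Around them, 20 of 26 iron and haem handling symbols were on the array and 19 measured. CYBRD1, which reduces iron for uptake in the gut, was at 53.9 in foregut and 87.2 in mid/hindgut, against 380.3 in early endoderm, 7.05-fold and 4.36-fold lower. These values come from its 1 probe set. SLC25A37, which brings iron into mitochondria, was at 215 in foregut and 104 in mid/hindgut, against 99.6 in early endoderm, 2.16-fold and 2.07-fold higher in foregut than in early and mid/hindgut endoderm. Its other measured probe set gave 0.33 and 0.78 in log2. STEAP2, a metal reductase, was at 63.0 in foregut, against 27.2 in early endoderm, 2.31-fold higher. The others were within 2-fold by the probe set used, with TFRC, FTH1, IREB2 and ACO1 among them. For TF, the iron carrier of blood plasma, the probe set used gave −0.22 in log2 for foregut against early, whereas 3 others gave 1.13 to 5.11, so its direction is not settled here. It had 2 higher and 1 lower in foregut against early, none higher and 1 lower in mid/hindgut against early, and 1 higher and none lower in foregut against mid/hindgut, with medians of 0.05, −0.02 and −0.03.

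SLC41 proteins carry magnesium, and all 3 were within 2-fold by the probe sets used. SLC41A3, of mitochondria, was at 169 in foregut and 231 in mid/hindgut, against 215 in early endoderm. Its 3 other measured probe sets put foregut above mid/hindgut, by 0.17 to 0.49 in log2, and gave −0.21 to 0.998 against early. SLC41A1 was at 54.1 and 99.2, against 65.8, although a second probe set was higher in foregut, by 1.06 in log2 over early and 0.83 over mid/hindgut. SLC41A2 was at 88.5 and 48.4, against 65.2. Of 7 other magnesium handling genes measured, from 8 of 10 symbols on the array, 1 differed. TRPM7, a channel and kinase for magnesium, was at 76.3 in foregut and 191 in mid/hindgut, against 478 in early endoderm. It was 6.27-fold lower in foregut and 2.50-fold lower in mid/hindgut than in early endoderm, and 2.51-fold lower in foregut than in mid/hindgut. The medians of this list were −0.19, −0.12 and −0.10.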

How the data were processed

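Per the labels, tissue pooled from collections 4 hours apart during 1 day gave the 5 µg of RNA on each array. The deposited values are MAS5 signal intensities on a linear scale, per the submitters' processing notes; for the MAS5 version and target: not given in the sources used here. No array was replicated, so precision rests on 1 array per tissue. Aligner and genome build do not apply.

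Of 38535 probe sets, 37693 are for chicken. The annotation gives 27178 a single gene and 177 several genes; 11180 are not listed. Entrez identifiers found 26863 in the current RefSeq table and 71 of the 72 members. Arrays were scaled to the mean of their 2% trimmed means, by 1.09 in foregut, 1.06 in mid/hindgut and 0.881 in early endoderm. Signals under the 40th percentile of chicken probe sets were set to that floor. Where a gene had several probe sets, the one brightest on average (log2, after the floor) was used. A gene counts as measured in a comparison when above the floor in either tissue, and as called at 2-fold. No test across samples was possible. The code for the folds was tested on simulated data. Python 3.11.15, pandas 2.3.3 and numpy 2.4.6 were used.

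Members called at 2-fold and the brightest of each family are named with values, and so are up to 3 called partners per list and comparison; others were chosen after their values were seen. Members and lists were chosen with earlier results of these data known. No protein or promoter sequences were used here. The 11 alternatives, 1 of them chosen after seeing the data, are given at the end.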

Additional observations from a re-analysis of the deposited data

How the results depend on the processing

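No paired analysis was possible because each tissue has 1 array. Of 22 calls of single genes, 5 held under all 9 alternatives run for single genes: SLC39A8 in foregut against early and against mid/hindgut, SLC34A2 in foregut and in mid/hindgut against early, and SLC39A6 in mid/hindgut against early. Both calls of SLC30A10 held under the 8 that gave a value, and no call changed sign. Some alternatives could not alter these values. Requiring signal above the floor on all 3 arrays can drop a gene but leaves its value unchanged. Counting probe sets listed under several identifiers of 1 symbol could not alter any of these calls. Leaving out shared probe sets could not alter SLC39A8, SLC34A2 or SLC30A10, whose probe sets used are not shared. Moving the floor could not alter SLC39A8 or SLC39A6, whose probe sets used were above it in every tissue at each setting. The lower floor could also not alter SLC34A2, or SLC30A10 in mid/hindgut against early endoderm. The counts at 2-fold and the median log2 differences moved as follows, and the cause was not tested. In foregut against early endoderm, the genes lower numbered 11 of 57 without scaling, 2 of 60 with hybridisation controls and 3 of 57 over the median of probe sets. Without shared probe sets they numbered 3 of 41, and at 3-fold 2 of 57. The shares of all genes were, in that order, 11.1%, 3.42%, 5.58%, 6.66% and 2.65%. The genes higher numbered 9 of 60 with hybridisation controls, 8 of 68 with the floor at the 20th percentile and 1 of 33 with it at the 60th. With genes above the floor on all 3 arrays they numbered 1 of 44, and over the median of probe sets 0 of 57. Without shared probe sets they numbered 1 of 41, and at 3-fold 1 of 57. The shares of all genes were, in that order, 22.2%, 13.8%, 8.57%, 9.23%, 7.12%, 11.0% and 4.48%. The median was −0.43 without scaling, 0.31 with hybridisation controls, 0.00 over the median of probe sets and 0.12 without shared probe sets. In mid/hindgut against early endoderm, the genes lower numbered 5 of 56 after quantile normalisation, 6 of 56 without scaling and 6 of 68 with the 20th percentile. The shares of all genes were 5.59%, 7.83% and 7.27%. The genes higher numbered 1 of 35 with the 60th percentile and 1 of 44 with all 3 arrays, beside 6.16% and 6.64% of all genes. The median was 0.04 after quantile normalisation, −0.16 without scaling, 0.00 with hybridisation controls, 0.21 with the 60th percentile, 0.04 with all 3 arrays, 0.00 over the median of probe sets, 0.21 without shared probe sets and −0.03 without the 3 genes that are not transporters. In foregut against mid/hindgut endoderm, the genes lower numbered 3 of 62 with hybridisation controls, 7 of 68 with the 20th percentile and 3 of 37 with the 60th percentile. With all 3 arrays they numbered 3 of 44, and at 3-fold 3 of 56. The shares of all genes were, in that order, 2.27%, 8.21%, 4.71%, 5.09% and 2.16%. The genes higher numbered 10 of 62 with hybridisation controls, 7 of 68 with the 20th percentile and 0 of 57 over the median of probe sets. Without shared probe sets they numbered 1 of 41, and at 3-fold 1 of 56. The shares of all genes were, in that order, 20.6%, 9.15%, 4.11%, 6.91% and 2.32%. The median was 0.28 with hybridisation controls, −0.12 with the 20th percentile, −0.30 with all 3 arrays, −0.01 over the median of probe sets and −0.11 without shared probe sets. Counting probe sets listed under several identifiers of 1 symbol, chosen after seeing the data, added SLC4A8 and left these counts at 3 to 5 genes. Scaling moved all genes too: in foregut against early endoderm 22.2% were higher and 3.42% lower with hybridisation controls, and 6.83% and 11.1% without scaling. The transporter median minus that of all genes was −0.21 in foregut against early as reported and −0.20 with hybridisation controls. This difference was not kept when the probe sets changed: it was 0.00 over the median of probe sets and 0.04 without shared probe sets. Dim signals near the floor limit what can be read of SLC39A12, SLC4A3, SLC12A5 and SLC8A1.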

Other observations

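Probe sets that the annotation gives to several genes were kept out of the values above, and 4 of them concern these families. The 3 listed for both SLC40A1 and its neighbour ORMDL1 read 52.0, 25.1 and 12.4 in foregut, 71.8, 58.5 and 44.0 in mid/hindgut and 17.8, 38.0 and 22.0 in early endoderm, highest in mid/hindgut in each case. Which gene they read is not known. The last is listed for SLC4A8 under 2 gene identifiers and enters the counts only as an alternative.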
